A study of Homo sapiens with 30 samples.

Results

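The histone genes were followed over 30 2-colour Agilent 44K arrays, as the probes whose gene name on the array design begins with HIST1H to HIST4H, H2AF, H1F or H3F. The rule took 109 of 41000 probes and 77 of 30484 gene names. Of these, 85 probes of 64 genes carried a HIST name and are called replication-dependent here, and 24 probes of 13 genes belonged to variant histones named H2AF, H1F or H3F. The study treated 5 breast cancer cell lines (HCC1954, MDA-MB-231, MDA-MB-361, T-47D and ZR-75-30) with BMP7 or with vehicle for 30 min, 1, 3, 6, 12 or 24 h, after the cells had adhered to 24-well plates. Each array held the vehicle-treated RNA of 1 line and time point in the Cy3 channel and the BMP7-treated RNA in the Cy5 channel. The RNA of 3 cultures was pooled per sample, no array was repeated and the dyes were never swapped. The methods give MDA-MB-231 and T-47D serum concentrations of their own in the culture medium, a different one for each. Serum and cell line therefore cannot be told apart. The p-values rest on the spread between time points of a line, since there were no repeated arrays. Those of the mean BMP7 ratio are the exception and rest on the spread between 5 line means.

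Histones package DNA into nucleosomes, each built around an octamer of H2A, H2B, H3 and H4, with H1 as the linker between them. Replication-dependent histone genes lie in clusters and are transcribed mainly during S phase, and most of their mRNAs end in a stem-loop in place of a poly(A) tail. Variant genes such as H2AFZ and H3F3B are polyadenylated and are used throughout the cell cycle. The labels state amplification with a kit of the oligo(dT) kind, which copies polyadenylated RNA. How much of each histone mRNA it captured was not measured, so the values below compare lines and time points within a probe and not one probe with another.

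The replication-dependent probes comprised 6 of H1, 23 of H2A, 25 of H2B, 16 of H3 and 15 of H4, and the variant probes comprised 4 of H1, 12 of H2A and 8 of H3. In the array's hg18 coordinates the HIST1 cluster held 66 probes of 54 genes on chromosome 6 between 25834542 and 27969626. The HIST2 cluster held 12 probes of 6 genes on chromosome 1 between 148071020 and 148125868, HIST3 held 5 probes of 3 genes on chromosome 1 between 226679269 and 226714218, and HIST4 held 2 probes of 1 gene on chromosome 12 between 14813329 and 14815332. Both channels were above background on all 30 arrays for 82 of the 109 probes, and 4 probes were never above background in Cy3. Of the log2 ratios, 211 of 3264 were listed at exactly 0, all of them on spots where neither channel was above background. Histone genes of a family are close copies of each other (HIST2H2AA3 has a near-identical neighbour, HIST2H2AA4), and the probe sequences were not used here, so a probe may read more than 1 gene.

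On the arrays, 53.8 to 68.3% of all probes were above background in both channels. The MDA-MB-231 array of 6 h stood apart, with 2741 spots marked as outliers against 106 to 525 on the others, and 6 arrays were scanned in a second batch. These were the 30 min and 6 h arrays of both ZR-75-30 and MDA-MB-231, the 3 h array of T-47D and the 30 min array of HCC1954. Some line markers set the lines apart in vehicle. The epithelial CDH1 had a mean of -1.80 in MDA-MB-231 against 4.83 to 6.79 in the other lines. Mesenchymal VIM was at 6.93 in MDA-MB-231, at 4.41 in HCC1954 and at -2.03 or less in the rest. Other markers did not follow this split. Epithelial KRT19 was at 5.69 in MDA-MB-231 and at 1.35 in HCC1954, and mesenchymal SPARC was at -5.78 in MDA-MB-231 and at -4.30 in T-47D. ERBB2 was at 7.24 in MDA-MB-361, at 7.09 in HCC1954 and at 6.54 in ZR-75-30 against 1.95 in MDA-MB-231 and 3.35 in T-47D. The leukocyte gene PTPRC was above background on 0 arrays, whereas the leukocyte genes CD3E and CD14 were above background in Cy3 on all 30. ID1, a direct BMP target, had a mean log2 ratio of BMP7 over vehicle between 0.45 in T-47D and 1.39 in MDA-MB-231. In the same 2 lines ID2 ran from 0.59 to 1.44. ID3 ran from 0.12 in T-47D, below its SD of 0.25 there, to 1.18 in MDA-MB-231.

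The promoters of 6 members on which the results turn are printed here, because replication-dependent histone genes are known for sharing short promoter elements. Each is the 250 bases before the gene's start, 5′ to 3′ on the gene's strand, from RefSeq on GRCh38.p14, a build other than the hg18 of the probe positions. Capitals mark the TATA element (TATAAA), the CCAAT box (CCAAT) and the octamer (ATTTGCAT) on either strand. HIST2H2AA3 (now H2AC18), at chr1:149842751-149843000 on the minus strand, HIST3H2BB (H2BC26), at chr1:228457853-228458102 on the plus strand, and HIST1H2AA (H2AC1), at chr6:25726563-25726812 on the minus strand, had the lower BMP7 ratios in T-47D. For HIST2H2AA3, with 2 probes, and HIST3H2BB, with 3, only 1 probe each passed the test. The HIST1H2AA probe was above background in both channels on 22 of 30 arrays. HIST1H4K (H4C12), at chr6:27831561-27831810 on the minus strand, and HIST1H4J (H4C11), at chr6:27823842-27824091 on the plus strand, gave values that moved together. H2AFZ (H2AZ1), at chr4:99950276-99950525 on the minus strand, is shown as a variant gene.
HIST2H2AA3: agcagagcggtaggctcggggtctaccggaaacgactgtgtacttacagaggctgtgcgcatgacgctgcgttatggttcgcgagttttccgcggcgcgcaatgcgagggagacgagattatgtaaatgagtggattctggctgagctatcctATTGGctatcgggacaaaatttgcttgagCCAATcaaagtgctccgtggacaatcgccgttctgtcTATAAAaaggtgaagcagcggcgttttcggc
HIST3H2BB: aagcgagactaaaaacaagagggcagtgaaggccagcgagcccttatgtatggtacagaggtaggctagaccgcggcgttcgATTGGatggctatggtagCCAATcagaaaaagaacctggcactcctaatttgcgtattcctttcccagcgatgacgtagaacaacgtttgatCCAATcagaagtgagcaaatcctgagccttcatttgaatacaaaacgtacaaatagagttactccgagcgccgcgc
HIST1H2AA: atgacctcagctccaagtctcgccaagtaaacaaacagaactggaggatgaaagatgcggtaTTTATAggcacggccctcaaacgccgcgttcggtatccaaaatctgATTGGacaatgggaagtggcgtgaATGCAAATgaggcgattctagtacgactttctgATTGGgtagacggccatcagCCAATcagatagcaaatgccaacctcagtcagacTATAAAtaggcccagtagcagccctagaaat
HIST1H4K: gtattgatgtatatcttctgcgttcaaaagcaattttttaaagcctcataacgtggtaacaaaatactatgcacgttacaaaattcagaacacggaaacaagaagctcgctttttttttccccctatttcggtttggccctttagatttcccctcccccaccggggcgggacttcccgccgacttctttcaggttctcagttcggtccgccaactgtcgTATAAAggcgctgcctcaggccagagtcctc
HIST1H4J: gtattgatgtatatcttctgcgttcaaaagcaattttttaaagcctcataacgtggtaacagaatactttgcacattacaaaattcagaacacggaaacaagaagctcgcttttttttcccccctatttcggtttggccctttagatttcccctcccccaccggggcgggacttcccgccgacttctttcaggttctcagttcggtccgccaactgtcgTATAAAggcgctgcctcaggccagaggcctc
H2AFZ: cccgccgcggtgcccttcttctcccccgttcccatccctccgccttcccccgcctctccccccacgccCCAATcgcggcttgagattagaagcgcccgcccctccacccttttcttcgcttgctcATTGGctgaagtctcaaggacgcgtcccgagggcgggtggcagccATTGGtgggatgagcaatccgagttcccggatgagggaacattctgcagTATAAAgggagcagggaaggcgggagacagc

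Promoters were at hand for 66 of the 77 genes, 54 replication-dependent and 12 variant. TATAAA was present in 36 of the 54 replication-dependent promoters (66.7%), in 4 of 12 variant promoters (33.3%) and in 11.1% of 27305 promoters of all genes. CCAAT was present in 45 of 54 (83.3%), in 9 of 12 (75%) and in 33.0% of all. All promoters of the replication-dependent H1, H2A, H2B and H3 genes held CCAAT, against 3 of 12 of the H4 genes. The octamer stood in 20 of 54 (37.0%), in 1 of 12 (8.33%) and in 1.66% of all, and it was a feature of H2A (11 of 14) and H2B (8 of 12) promoters, with 1 of 10 in H3 and 0 of 12 in H4. The HIST1H4K and HIST1H4J promoters differed at 5 of 250 bases, and the vehicle levels of the 2 probes correlated with r = 0.991 over 30 arrays. That correlation is a description, since near-identical genes may also share hybridisation.

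In vehicle-treated cells the replication-dependent histone genes separated MDA-MB-231 from the other lines. The vehicle level is the log2 Cy3 signal minus the 75th percentile of its array. The median level over the 85 probes was -0.10, -0.63, -0.59, -0.93, -0.87 and -0.85 in MDA-MB-231 at 30 min to 24 h (mean -0.66 ± 0.31, SD, n = 6 time points), and the lowest median on any array of the other lines was 0.33. ZR-75-30 had the highest mean, at 1.22 ± 0.33 (SD, n = 6), with arrays from 0.90 to 1.66. These overlapped the arrays of T-47D, which ran from 0.55 to 1.40 with a mean of 0.78 ± 0.32. The arrays of HCC1954 (mean 0.58 ± 0.19), MDA-MB-361 (0.65 ± 0.09) and T-47D overlapped. The highest arrays in HCC1954, MDA-MB-231, T-47D and ZR-75-30 came from the second scan batch, although the MDA-MB-231 array of 6 h, of that batch too, was the lowest of its line. The part of the batch in these levels was not tested in this description, and tests without those arrays are given below.

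The variant genes followed another order. Their median level was highest in MDA-MB-361, at 5.28 ± 0.10, then 5.10 ± 0.22 in ZR-75-30, 5.05 ± 0.28 in T-47D, 4.60 ± 0.62 in MDA-MB-231 and 4.27 ± 0.10 in HCC1954 (SD, n = 6 time points each). The large SD of MDA-MB-231 came with its 6 h array, at 5.86. HCC1954 lay below MDA-MB-361, T-47D and ZR-75-30 by more than the SDs. The median of all 41000 probes was between -3.53 and -2.83 on single arrays.

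**Figure D1:**
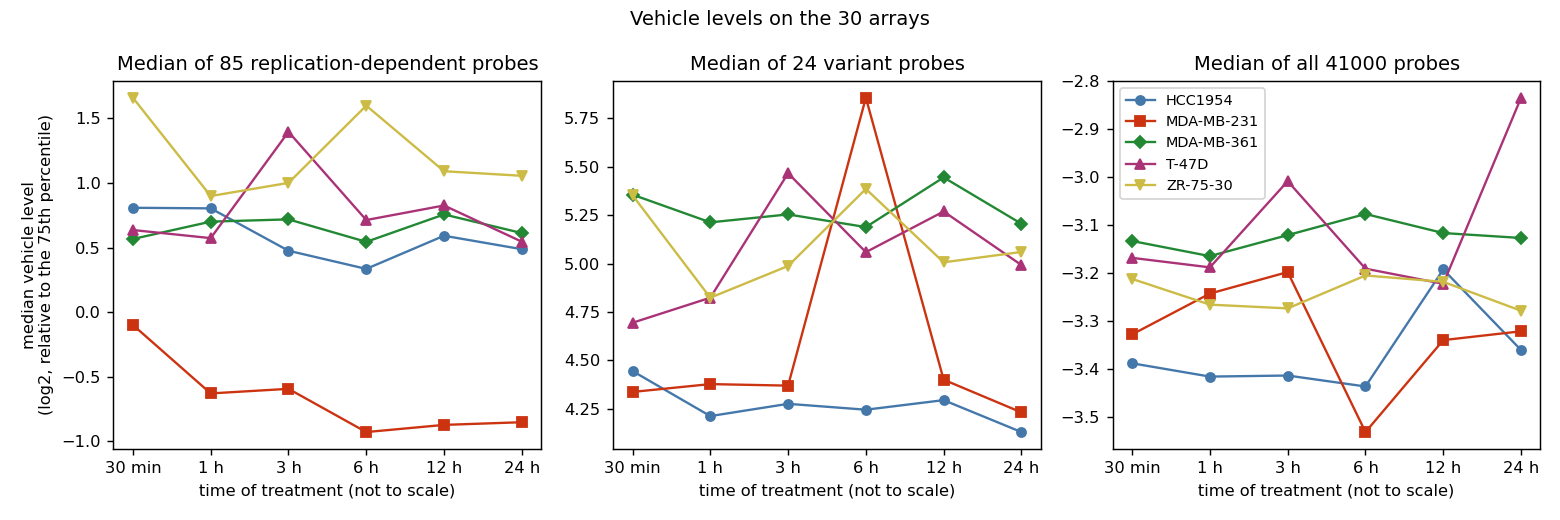
Median vehicle level (log2 Cy3 signal minus the array's 75th percentile) of the 85 replication-dependent probes, the 24 variant probes and all 41000 probes, by time point (not to scale) and cell line, with a y axis of its own in each panel. In the first panel the MDA-MB-231 line runs from -0.10 to -0.93 and lies below the other 4 lines at every time point.

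The levels were tested by line with limma, with time point as a term. Equal levels in the 5 lines were rejected for 99 of 109 histone probes, beside 75.6% of all probes, at an adjusted p under 0.05. By family the counts were 5 of 6 for H1, 23 of 23 for H2A, 23 of 25 for H2B, 15 of 16 for H3 and 14 of 15 for H4, and 3 of 4, 8 of 12 and 8 of 8 for variant H1, H2A and H3. Each line was then set against the mean of the other 4. These 5 contrasts share arrays, so a line that lies low raises the contrasts of the others. Member counts given below for other settings or fewer arrays stand without the share of all probes in the same fit. The median difference of all probes was 0.34 in T-47D and -0.32 in HCC1954, with MDA-MB-231 at -0.12, ZR-75-30 at 0.02 and MDA-MB-361 at 0.01, and the differences below are to be read relative to these shifts.

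In MDA-MB-231, 78 members were lower and 10 higher than in the other lines, beside 24.3% of all probes lower and 24.4% higher. The replication-dependent probes had a median difference of -1.64 on the log2 scale, or 3.13-fold, with 65 lower and 8 higher. H2A probes were the furthest down, with 18 of 23 lower and a median of -2.01 (4.04-fold). H2B had 20 of 25 lower (-1.62), H3 15 of 16 (-1.42) and H1 4 of 6 (-1.16). H4 was divided, with 8 lower and 5 higher and a median of -0.75. The HIST1 and HIST2 clusters had similar medians, at -1.59 and -1.83. Of the variant genes 13 probes were lower and 2 higher. Their median was -0.68, and that of variant H2A was 0.04, which turned to -0.14 under normexp background correction with quantile normalization and to -0.02 with scan batch as a term. The count of lower members was 84 with the first scan batch alone, a choice made after seeing the data.

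HIST2H2AA3, an H2A gene of the HIST2 cluster, had vehicle levels of 0.79, 0.29, 0.27, 0.80, 0.24 and 0.05 in MDA-MB-231 with probe A_23_P103981, in the order of the time points (mean 0.41 ± 0.31, SD, n = 6). In the other lines the same probe lay between 3.82 and 5.66, with no overlap. The difference was -4.13 (SE 0.16), or 17.5-fold, at an adjusted p of 5.74e-17 (limma). HIST1H1C, a linker histone, was at 2.50, 2.08, 2.07, 2.25, 1.91 and 1.92 in MDA-MB-231 (2.12 ± 0.22) against line means of 3.96 to 4.61. It differed by -2.31 (SE 0.12), or 4.96-fold, at an adjusted p of 4.84e-14. HIST1H2BK, an H2B gene, was at 2.87, 2.36, 2.33, 2.33 and 2.25 on the 5 arrays of MDA-MB-231 that gave a value and differed by -1.62 (3.07-fold, adjusted p = 2.97e-10). The 6 h value of this probe was an outlier spot and was left out. No array of MDA-MB-231 overlapped those of the other lines for any of these 3 probes.

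Some members were not above background on any MDA-MB-231 array, so that only a bound can be given, from the lowest signal called above background. HIST1H3D (A_23_P219045) was at least 21.1-fold lower there, HIST2H2BE (A_23_P149545) at least 7.82-fold, HIST3H2BB (A_32_P443407) at least 5.94-fold, HIST1H3G at least 4.93-fold and HIST1H1B at least 2.25-fold. H2AFJ, a variant H2A gene, was at least 6.04-fold lower with probe A_23_P432385. These bounds hold for the named probes. The least lowered probe of the same gene differed by -1.64 for HIST1H3D, -1.81 for HIST2H2BE, -1.40 for HIST1H3G and -2.11 for H2AFJ, all called. For HIST3H2BB that probe differed by 0.08 and was not called. H2AFY2, which codes for a macroH2A, was above background on 2 of 6 MDA-MB-231 arrays. Those were the arrays of the second scan batch, at -3.03 (30 min) and -3.0 (6 h), while the other 4 lay between -7.35 and -8.28. That batch moved with the value, and its part within this line was not tested. With scan batch as a term common to the lines, all 50 named vehicle differences, that of H2AFY2 among them, kept direction and call.

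The H4 genes that were higher in MDA-MB-231 included HIST1H4D (1.38, adjusted p = 4.74e-05, limma), HIST1H4L (1.22, adjusted p = 4.21e-06) and HIST1H4C (0.99, adjusted p = 0.000199), all of the HIST1 cluster and above background on its 6 arrays, together with HIST1H4B (0.78, adjusted p = 0.027). The fifth, HIST1H4A, was at -3.89 in MDA-MB-231, above background on 6 of 6 arrays, but on 0 of 6 in HCC1954 and in MDA-MB-361 and on 3 of 6 in T-47D and in ZR-75-30, so its fitted difference is not given. HIST1H4J and HIST1H4K were among the 8 lower ones. HIST1H4C lay at 6.37, 6.08, 6.01, 6.86, 4.95 and 5.72 in MDA-MB-231. Its lines overlapped, since HCC1954 ran from 5.03 to 6.15. HIST1H4E went the other way and was above background on 1 of 6 MDA-MB-231 arrays. The variant H2AFV was higher with both of its named probes, by 1.19 (A_23_P316487, adjusted p = 3e-05) and by 0.55 (A_23_P145904, adjusted p = 0.00692).

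**Figure D2:**
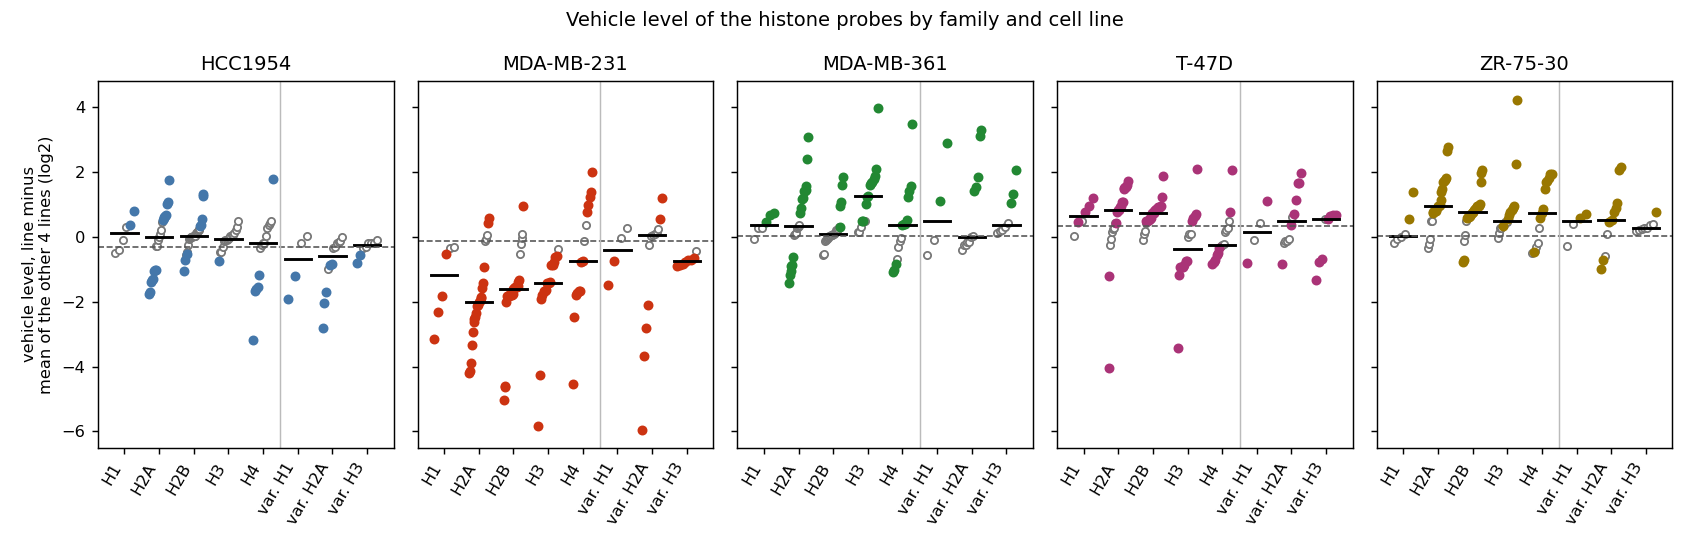
Difference of each line's vehicle level from the mean of the other 4 lines (log2), 1 panel per line and 1 dot per probe, by histone family. Filled dots have an adjusted p under 0.05 (limma), also where a probe was not above background and its fitted difference is no bound, black bars are family medians and the dashed line is the median of all probes; the MDA-MB-231 panel shows H2A, H2B and H3 bars at -2.01, -1.62 and -1.42, and the T-47D panel includes an all-probe shift of 0.34 that depends on the scaling.

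ZR-75-30 was the line with the most members above the others, 68 higher and 5 lower, beside 22.0% and 19.9% of all probes. Its replication-dependent probes had a median difference of 0.76 (1.69-fold), with 58 higher and 3 lower. H2A (18 of 23 higher, median 0.95), H2B (20 of 25, 0.76), H4 (9 of 15, 0.74) and H3 (9 of 16, 0.50) were all above 0. The H1 median of 0.04 became -0.01 and -0.03 under normexp with quantile normalization and with scan batch as a term. The HIST2 cluster reached 1.19, with 9 of 12 probes higher. HIST2H4A, an H4 gene of this cluster, was at 2.36, 1.69, 2.13, 2.04, 2.28 and 2.29 in ZR-75-30 (2.13 ± 0.25) against line means of -0.87 to 0.86. It differed by 1.94 (3.85-fold, adjusted p = 3.52e-11, limma), and its ZR-75-30 arrays did not overlap those of any other line. HIST2H2AC (A_23_P301247) differed by 1.75 (3.37-fold, adjusted p = 1.12e-09). H2AFX, the H2A variant that is phosphorylated at DNA breaks, was at 6.42 ± 0.07 in ZR-75-30 and differed by 0.88, while in HCC1954 it differed by -0.83. Without MDA-MB-231 in the fit, the count of higher members in ZR-75-30 was 46.

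MDA-MB-361 had 48 members higher and 9 lower, beside 24.5% of all probes each way. The H3 genes led, with 12 of 16 probes higher and a median of 1.24 (2.37-fold), and the median of all replication-dependent probes was 0.29. HIST2H3A (A_23_P115375), an H3 gene, lay at 5.98, 6.14, 6.05, 5.99, 5.75 and 5.63 in MDA-MB-361 and at no more than 5.08 on the arrays of the other lines. It differed by 1.69 (3.22-fold, adjusted p = 3.26e-12, limma). H3F3B, which encodes the variant H3.3, differed by 2.05 with probe A_24_P91035 (4.15-fold, adjusted p = 4.74e-13), from a level of 6.47 ± 0.25. H1F0, the linker histone known from differentiated and resting cells, lay at 5.07, 5.14, 5.14, 4.94, 4.79 and 4.69 against line means of 1.12 to 3.11. It differed by 2.89 (7.4-fold, adjusted p = 1.01e-14), and its MDA-MB-361 arrays were all above those of the other lines. HIST1H2AK was at least 2.43-fold higher in MDA-MB-361 with probe A_24_P940441, which was above background on 5 of its 6 arrays and on none elsewhere.

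T-47D had 56 members higher and 21 lower, beside 33.6% and 20.6% of all probes. This split depended on the scaling: without the 75th percentile, 20 members were higher and 23 lower. Families differed within the line. H2A (14 higher, 2 lower, median 0.81), H2B (20 and 0, 0.74) and H1 (4 and 0, 0.63) lay above the all-probe shift of 0.34, while H3 (5 and 8, -0.37) and H4 (2 and 6, -0.25) lay below 0. The signs of these 5 family medians were the same under each scaling, whereas variant H1 turned from 0.15 to -0.17 under normexp with quantile normalization and to -0.04 with scan batch as a term. H2AFJ (A_23_P204277) was at 6.34 ± 0.42 in T-47D and 6.23 ± 0.09 in MDA-MB-361, against 3.12 ± 0.41 in HCC1954 and 2.52 ± 0.30 in MDA-MB-231, with ZR-75-30 at 5.59 ± 0.44. The T-47D and MDA-MB-361 levels differed by less than the SD of T-47D. HIST2H3A and H3F3B, high in MDA-MB-361, differed by -1.18 (A_23_P115375) and -1.34 (A_24_P91035) in T-47D. Without MDA-MB-231 in the fit, 35 members were higher in T-47D.

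HCC1954 had 16 members higher and 26 lower, beside 19.0% and 29.9% of all probes. The replication-dependent probes were divided evenly (16 higher, 17 lower) around a median of -0.01, which was 0.18 without scaling and 0.02 with scan batch as a term. H4 had 1 probe higher and 5 lower, whereas the HIST2 cluster had 6 of 12 higher and 0 lower (median 0.47). None of the variant probes was higher and 9 were lower, with a median of -0.33, close to the all-probe shift. H1F0 differed by -1.91 (3.77-fold) and HIST1H4K by -1.67 (3.17-fold) in HCC1954. The count of lower members rose to 65 without MDA-MB-231 and fell to 17 when only probes above background in Cy3 on at least 24 arrays were tested. Both counts lack the share of all probes in the same fit and are not read as a trait of histones.

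The genes that act on histones did not follow one order with the histone genes. The list of histone mRNA transcription and processing held 20 names, some of them an old and a new name of 1 gene, and 18 genes were measured. In MDA-MB-231, where histone probes were lower, 11 of these were higher and 1 lower, with a median of 0.37. They included LSM11 (1.27), a subunit of the U7 particle that cuts histone pre-mRNA, NPAT (1.12), the activator of histone transcription in S phase, and THEX1 (1.03), an exonuclease of histone mRNA ends. LSM11 was not raised in MDA-MB-231 alone, with a mean of -0.42 there beside -0.38 in HCC1954 and -0.50 in T-47D. Its difference came with the lower means of MDA-MB-361 (-4.62) and ZR-75-30 (-1.28). In MDA-MB-361, 1 was higher and 8 lower (median -0.16), with LSM11 at -3.97 (above background on 5 of its 6 MDA-MB-361 arrays), CSTF2 at -2.04 and THEX1 at -1.76. In HCC1954 7 were higher and 4 lower, in T-47D 3 and 2, and in ZR-75-30 4 and 2. Of all probes, 24.4% were higher and 24.3% lower in MDA-MB-231, and 24.5% each way in MDA-MB-361. The shares were 19.0% and 29.9% in HCC1954, 33.6% and 20.6% in T-47D, and 22.0% and 19.9% in ZR-75-30. The counts of this list and of the lists below are to be read beside these shares.

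Of the histone chaperones 19 were measured. In MDA-MB-231 13 were higher and 3 lower (median 0.50), among them NAP1L1 (2.0) and NASP (1.03). In HCC1954 NAP1L1 differed by -2.02, with 7 chaperones higher and 4 lower. ANP32E, which removes H2A.Z from nucleosomes, was at 1.71 ± 0.41 in MDA-MB-231 and was not above background on any HCC1954 array, and in the remaining lines its mean lay between -0.85 and 0.75. ZR-75-30 had 4 higher and 9 lower (median -0.41), MDA-MB-361 5 and 7, and T-47D 6 and 5.

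Of 23 S-phase genes, 15 were higher and 2 lower in MDA-MB-231 (median 0.52), with TYMS at 1.74 and GINS2 at -1.40. In MDA-MB-361 1 was higher and 14 lower (median -0.58), with CDC6 at -2.30 and MCM7 at -1.44. The 10 mitotic genes had 8 higher and 0 lower in MDA-MB-231 (median 1.23), with MKI67 at 1.71, and 0 higher and 6 lower in MDA-MB-361 (median -1.41), with TOP2A at -2.23. Thus the line with the lowest replication-dependent histone signal was the one with the most S-phase and mitotic genes higher. These values stand side by side, and their relation was not tested.

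Over time in vehicle, no histone probe passed the test. The mean of 12 h and 24 h against that of 30 min and 1 h was called for 0 of 109 members, beside 0.0561% of all probes (23 of 40999), and 13 members had an unadjusted p under 0.05 (limma). The median difference was -0.09 for replication-dependent and -0.11 for variant probes, beside 0.04 for all. Within single lines the call was made for 0 members as well, beside 0.083% of all probes in MDA-MB-231, 0.0122% in T-47D and 0.0% in each of the other lines. The medians within lines differed in sign. In MDA-MB-231 the replication-dependent median difference was -0.50 with 77 of 85 probes below 0, and in T-47D it was 0.53 with 79 of 85 above 0, beside all-probe medians of -0.11 and 0.21. It was -0.26 in HCC1954, 0.11 in MDA-MB-361 and -0.25 in ZR-75-30. The 30 min arrays of ZR-75-30, HCC1954 and MDA-MB-231 belong to the second scan batch, and without them, a choice made after seeing the data, the median difference was -0.02 in HCC1954, -0.30 in MDA-MB-231 and 0.13 in ZR-75-30. Without its 12 h array that of MDA-MB-361 was -0.02, so the sign in ZR-75-30 and in MDA-MB-361 rested on 1 array each. The part of the batch in these medians was not tested. The test that the difference over time was equal in the 5 lines called 0 members and 0.0% of all probes, with 9 members at an unadjusted p under 0.05.

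The response to BMP7 is given as the log2 ratio of Cy5 over Cy3, from the processed signals of the scanner. It shares the Cy3 channel with the vehicle level, so both values of an array are linked. Averaged over the 5 lines, no histone probe passed the test. The mean ratio was called for 0 members, beside 0.00976% of all probes (4 of 41000), and 12 members had an unadjusted p under 0.05 (limma). The median over replication-dependent probes was -0.03 and over variant probes 0.01. H2A had 20 of 23 probes below 0 (median -0.07), H4 12 of 15 below 0 (-0.05), and H2B 17 of 25 above 0 (0.03). Without a dye swap, these means hold any dye bias of a probe. Under normexp with median scaling, 24 members were called, a count given without its direction or the share of all probes. That scaling shifted the class medians. On HCC1954 at 30 min it put the replication-dependent median at 1.125 and the variant median at 1.54, against -0.04 and 0.08 in the main values.

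The lines differed in their ratios. Equal mean ratios in the 5 lines were rejected for 22 of 109 members, beside 15.2% of all probes, so the share of members was near the background. Of these, 20 were replication-dependent and 2 variant, and H2B had 10 of 25 (40.0%). The count was 0 under normexp with median scaling and 11 with the first scan batch alone. Ratio counts for other settings, here and below, stand without the share of all probes unless it is given. It also moved by over 1.5 times without single lines or arrays, to 9 without HCC1954, 6 without MDA-MB-361 and 6 without T-47D. Leaving out 1 array lowered it most without T-47D at 24 h, to 11, and to 13 or 14 without 10 other arrays, namely ZR-75-30 at 12 h, T-47D at 1 h, MDA-MB-361 at 1, 3 and 24 h and all HCC1954 arrays except that of 1 h.

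T-47D was the line whose histone probes had the lower ratios. In T-47D, 27 members had a lower ratio than the mean of the other lines and 1 a higher one, beside 5.47% and 4.16% of all probes. All but 1 of the lower probes were replication-dependent: 11 of H2A, 8 of H2B, 5 of H3 and 2 of H4, with 0 of H1. In all, 18 lay in the HIST1 cluster and 6 in HIST2. The median difference was -0.21 over the replication-dependent probes, 73 of 85 of which were below 0, and it was -0.35 for H4, -0.22 for H2A, -0.22 for H3 and -0.15 for H2B. The H1 median was 0.01, and -0.04 in the authors' own processed table. The variant median was -0.12, and all 8 variant H3 probes were below 0, of which 1 passed the test (H3F3B, A_24_P82419, -0.26, adjusted p = 0.0238).

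The T-47D ratios themselves can be read array by array. The median over the 85 probes was -0.00, -0.14, -0.05, -0.22, -0.28 and -0.33 from 30 min to 24 h (-0.17 ± 0.13, SD, n = 6), with 43, 54, 50, 70, 65 and 66 of 85 probes below 0. The means of the other lines were 0.07 ± 0.15 in ZR-75-30, 0.03 ± 0.02 in MDA-MB-361, -0.00 ± 0.15 in MDA-MB-231 and -0.03 ± 0.06 in HCC1954. That of ZR-75-30 rested on its 6 h array of the second scan batch (0.37), and without it the mean was 0.01 ± 0.01 (n = 5). These levels also depend on the normalization, since under normexp with median scaling the means were 0.17 in HCC1954, 0.25 in MDA-MB-231 and 0.27 in MDA-MB-361. The T-47D mean lay below each of the others by about its SD or more, and its arrays overlapped theirs, the lowest of which was at -0.21. The variant median in T-47D was -0.06 ± 0.12, and it turned to 0.07 under that scaling. The replication-dependent median of the T-47D contrast stayed below 0 under each normalization, at -0.13 under normexp with loess, -0.26 with median scaling and -0.24 in the authors' processed table.

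The count of 27 was less stable than the median. It was 17 under normexp with loess and 0 with median scaling, where 15 probes in all were called in that direction, and 31 in the authors' processed table. Without T-47D at 24 h it was 9, without T-47D at 1 h 13 and without T-47D at 6 h 14. Without MDA-MB-361, whose ratios for some of the same probes were high, it was 10, and without ZR-75-30 it was 16. With the first scan batch alone it was 18.

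**Figure D3:**
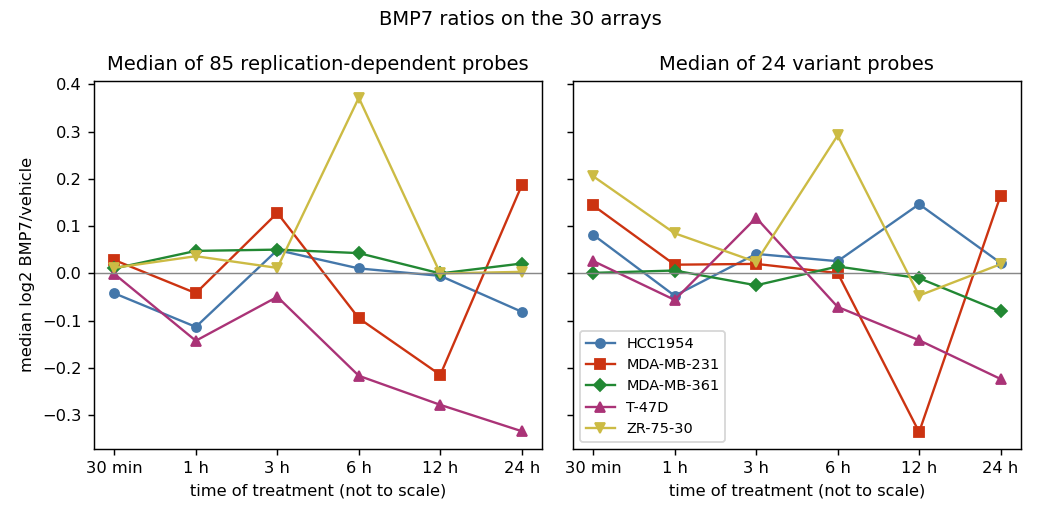
Median log2 ratio of BMP7 over vehicle of the 85 replication-dependent and the 24 variant probes, by time point (not to scale) and cell line, on a shared y axis. T-47D falls from -0.00 at 30 min to -0.33 at 24 h in the replication-dependent panel, and ZR-75-30 stands out at 6 h with 0.37.

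HIST2H2AA3, with probe A_23_P309381, had log2 ratios of -0.97, -1.52, -0.35, -0.33, -0.64 and -0.47 in T-47D. It differed from the other lines by -0.88 (SE 0.18), at an adjusted p of 0.00459 (limma), and all 6 T-47D ratios were below 0. The other probe of this gene, A_23_P103981, with the far brighter signal, differed by -0.11 and did not pass the test (adjusted p = 0.479). HIST3H2BB, an H2B gene of the HIST3 cluster, had ratios of -0.58, -0.77, -0.14, -0.95, -0.91 and -0.67 (A_24_P524452) and differed by -0.75 (SE 0.11, adjusted p = 0.000914). On 5 of its 6 arrays this probe lay below every array of the other lines, of which the lowest was -0.42. The 3 probes of HIST3H2BB differed by -0.75 to 0.09, with opposite signs, and only this 1 passed the test.

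HIST1H2BD had ratios of -0.42, -0.61, 0.06, -0.64, -0.53 and -0.67 with probe A_32_P152348 and differed by -0.62 (SE 0.10, adjusted p = 0.00134). Its 3 h array, from the second scan batch, was the one value above 0. The other HIST1H2BD probe differed by -0.12 and did not pass. HIST1H2AA, an H2A gene known from testis, had ratios of -0.43, -0.33, -1.06, -0.76, -0.54 and -0.09 and differed by -0.60 (SE 0.14, adjusted p = 0.0136). The HIST1H2AA probe was dim, above background in Cy3 on 25 of 30 arrays and in both channels on 22. Its largest T-47D ratio, -1.06 at 3 h, was not above background in both channels. HIST2H2AB differed by -0.59 (A_23_P343927, SE 0.18, adjusted p = 0.0405) from ratios of -0.42, -0.70, -0.17, -0.50, -1.14 and -1.38. It was above background in Cy3 on 5 of the 6 T-47D arrays, and under normexp with median scaling its difference was 0.03.

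The H4 genes HIST1H4K and HIST1H4J, whose promoters are printed above, both passed. HIST1H4K had ratios of -0.34, -0.53, -0.24, -0.58, -0.59 and -1.07 in T-47D and differed by -0.56 (SE 0.09, adjusted p = 0.00153), and HIST1H4J differed by -0.48 (SE 0.08, adjusted p = 0.00195). Because the 2 probes followed each other so closely, they are not separate evidence. The remaining 20 lower members differed by -0.15 (HIST1H2BB) to -0.37 (HIST2H3A, A_24_P45651). The 1 higher member was H2AFJ with probe A_23_P432385, at 0.07, 0.64, 0.30, 0.06, 0.10 and 0.38 (difference 0.51, adjusted p = 0.0136). The other H2AFJ probe, A_23_P204277, differed by -0.20 and did not pass (adjusted p = 0.105).

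**Figure D4:**
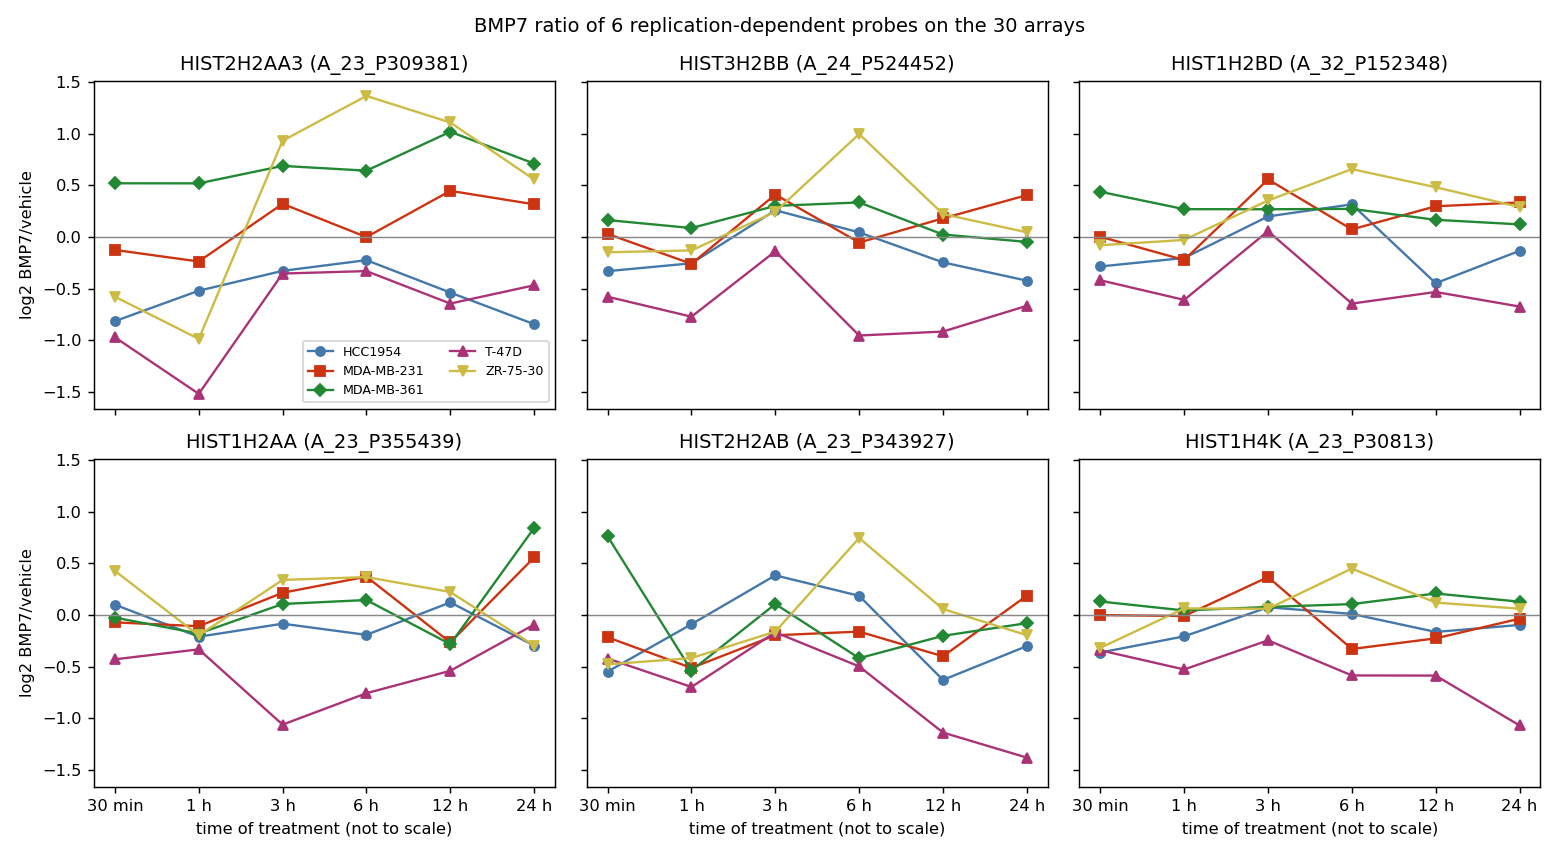
Log2 ratio of BMP7 over vehicle by time point (not to scale) in the 5 lines for 6 probes with a lower ratio in T-47D: HIST2H2AA3 (A_23_P309381), HIST3H2BB (A_24_P524452), HIST1H2BD (A_32_P152348), HIST1H2AA, HIST2H2AB (A_23_P343927) and HIST1H4K. The T-47D points are below 0 at every time point except HIST1H2BD at 3 h (0.06), and the HIST2H2AA3 panel shows ZR-75-30 moving from -0.58 to 1.36.

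MDA-MB-361 had 6 members with a higher ratio and 0 with a lower one, beside 4.86% and 4.19% of all probes. HIST2H2AA3 (A_23_P309381) had ratios of 0.52, 0.52, 0.69, 0.64, 1.02 and 0.71 there and differed by 0.87 (SE 0.18, adjusted p = 0.00647, limma). H1FX, a linker histone variant, had ratios of 0.45, 0.21, 0.39, 0.10, 0.72 and 0.36 and differed by 0.55 (adjusted p = 0.0222). HIST1H2BF (0.24, adjusted p = 0.0404) and HIST1H2BK (0.21, adjusted p = 0.0248) were above background on all arrays and differed by less. HIST1H1B (0.67, adjusted p = 0.0413) was above background in Cy3 on 4 of the 6 MDA-MB-361 arrays, and its 6 MDA-MB-231 ratios were listed at 0. HIST1H2BJ (A_24_P359231, 0.57, adjusted p = 0.0249) was above background on 0 of 6 MDA-MB-361 arrays and on 1 array in all, and 17 of its ratios were exactly 0. The count of 6 was 1 with scan batch as a term, with the first scan batch alone, under normexp with median scaling and without HCC1954. It was 2 without MDA-MB-361 at 30 min or at 12 h, 3 without its 3 h or 24 h array, 11 without ZR-75-30 or its 6 h array, and 13 in the authors' processed table.

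In HCC1954 1 member had a higher and 1 a lower ratio, beside 0.685% and 0.932% of all probes. HIST1H1B was the lower one, at -1.01, -0.43, -0.82, -0.72, -1.08 and -0.90 (difference -0.87, adjusted p = 0.041, limma), and it was above background in Cy3 on 4 of these 6 arrays. HIST4H4 (A_24_P261691, difference 0.43, adjusted p = 0.0478) was above background on 0 of 6 HCC1954 arrays. In MDA-MB-231 0 members passed in either direction, beside 0.0341% higher and 0.0171% lower. In ZR-75-30 also 0 passed, beside 0.351% and 0.446%. The median difference of ZR-75-30 over replication-dependent probes was 0.12, with 69 of 85 above 0 and 29 members higher at an unadjusted p under 0.05. It was 0.06 with the 6 h arrays left out, and -0.12 under normexp with median scaling.

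**Figure D5:**
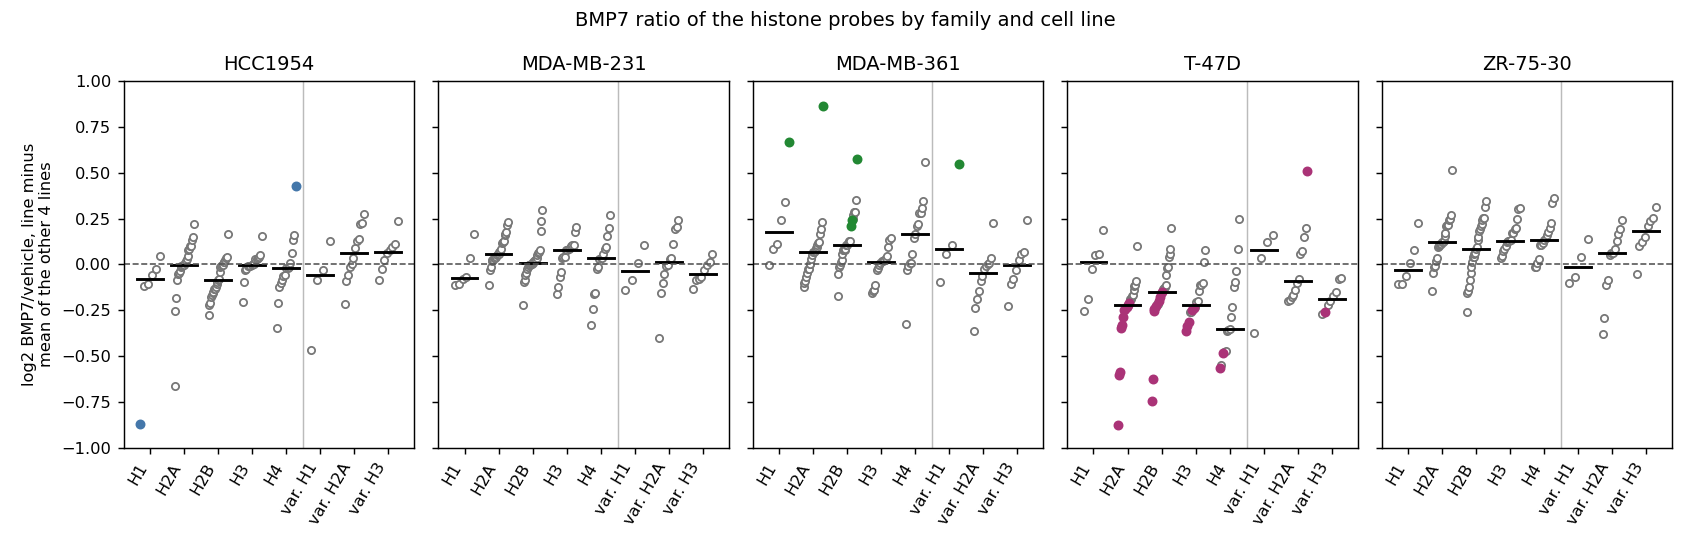
Difference of each line's mean log2 ratio of BMP7 over vehicle from the mean of the other 4 lines, 1 panel per line and 1 dot per probe, by histone family. Filled dots have an adjusted p under 0.05 (limma), black bars are family medians and the dashed line is the median of all probes; in the T-47D panel the H4, H2A, H3 and H2B bars lie at -0.35, -0.22, -0.22 and -0.15, and the sign of the ZR-75-30 bars depends on the normalization.

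In T-47D, beside 4.16% of all probes higher and 5.47% lower, 0 of the 18 genes of the processing list passed the test and 4 of the 23 S-phase genes were higher and 0 lower (TYMS 0.43, adjusted p = 0.00445, limma; MCM4 0.41; MCM6 0.34). Of the 19 chaperones 3 were higher and 1 lower in T-47D. In MDA-MB-361, beside 4.86% of all probes higher and 4.19% lower, 0 S-phase genes were higher and 3 lower, with GINS1 at -0.38 and RRM1 at -0.37, and of the processing list POU2F1 (-0.34, adjusted p = 0.0209) and CCNE2 (-0.32, adjusted p = 0.043) were lower. In ZR-75-30 MCM7 was lower (-0.30), and in HCC1954 and MDA-MB-231 no gene of these lists passed.

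Over time the ratio changed in few histone probes. The contrast of 12 h and 24 h with the first hour, over all lines, called 0 members, beside 0.18% of all probes (74 of 40999), and 12 members had an unadjusted p under 0.05 (limma). The count was 3 among probes above background in both channels on at least 24 arrays, 3 without HCC1954 at 1 h, 2 without HCC1954 at 24 h or MDA-MB-361 at 30 min, and 1 without ZR-75-30 at 3 h. The median was -0.04 for replication-dependent and -0.07 for variant probes.

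Within single lines 4 calls were made. In T-47D H2AFZ, the variant that marks promoters, had ratios of 0.41, 0.27, 0.24, -0.02, -0.31 and -0.63 with probe A_24_P41570, a difference of -0.81 at an adjusted p of 0.0474 (limma), beside 1.02% of all probes lower in that line. The ratios fell at each step from 30 min to 24 h. The second H2AFZ probe with high signal, A_24_P354468, had 0.17, -0.15, 0.29, -0.16, -0.42 and -0.64. In ZR-75-30, HIST2H2AA3 (A_23_P309381) had -0.58, -0.99, 0.93, 1.36, 1.11 and 0.56, a difference of 1.61 (adjusted p = 0.00667), and HIST1H1B had -0.99, -1.07, 0.75, 1.14, 0.66 and -0.20, a difference of 1.26 (adjusted p = 0.0338), beside 0.452% of all probes higher. Both were below 0 in the first hour and above 0 at 3, 6 and 12 h. HIST1H1B was above background in Cy3 on 4 of the 6 ZR-75-30 arrays.

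The last call was HIST1H1T, the testis linker histone, in MDA-MB-361 (1.07, adjusted p = 0.0102, limma), beside 0.134% of all probes higher. This probe was never above background, and its ratio was 0 at the first 4 time points, 1.51 at 12 h and 0.63 at 24 h. In HCC1954 and MDA-MB-231 0 members passed, beside 0.0196% and 0.132% of all probes. The T-47D replication-dependent median fell by 0.23 from the first hour to 12 and 24 h, with 64 of 85 probes below 0 and H4 at -0.44. The test that the change over time was equal in the 5 lines called 0 members, beside 0.139% of all probes (57 of 40907), with 4 members at an unadjusted p under 0.05.

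On single arrays, where the study counted 2-fold changes and no test is possible, histone genes were counted in the same way. A log2 ratio of at least 1 in size was seen for 32 of 3264 member values (0.980%), beside 1.87% of all probes. The count was 8 under normexp with loess and 167 with median scaling. By line the share of all probes was highest in ZR-75-30 (2.78%) and T-47D (2.77%), then MDA-MB-361 (1.51%), MDA-MB-231 (1.24%) and HCC1954 (1.03%). With both channels above background 18 member values were left, beside 0.798% of all such probe values. The replication-dependent probes had 27 of 2547 (1.06%) and the variant probes 5 of 717 (0.697%), and 88 of the 109 probes had none. These shares are descriptions and the difference was not tested.

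The 2-fold changes gathered on a few arrays. ZR-75-30 at 6 h had 10 and T-47D at 24 h had 6. The share of all probes on these arrays is not given here, so the counts are not read as particular to histones. By line the members were at 1.84% in ZR-75-30 and 1.83% in T-47D, beside 2.78% and 2.77% of all probes. In T-47D 1 was up and 11 were down, and in ZR-75-30 8 were up and 4 down. At 6 h in ZR-75-30 the H4 genes HIST1H4B (1.08), HIST1H4C (1.03), HIST1H4D (1.46), HIST1H4E (1.39) and HIST1H4L (1.08) were up. At 24 h in T-47D, HIST1H4C (-1.15), HIST1H4D (-1.11), HIST1H4E (-1.05) and HIST1H4K (-1.07) were down. Thus several of the H4 genes of 1 cluster moved on the same arrays, in opposite directions in the 2 lines, on probes that may share hybridisation. The ZR-75-30 array of 6 h belongs to the second scan batch. The members with the most such changes were HIST1H1B (1 up, 3 down) and HIST2H2AA3 with A_23_P309381 (3 up, 1 down).

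Probes of one gene did not always give the same picture. Of 24 genes with more than 1 probe, 5 had vehicle differences of opposite sign in MDA-MB-231, and 2 were called in both directions: HIST1H2BD (-1.51 and 0.96) and HIST2H2AC (-1.90 and 0.43). For these the vehicle levels of the 2 probes correlated with r = -0.275 and r = -0.034 over 30 arrays. HIST1H2AG had 1.73 in T-47D with A_24_P303354, while A_24_P414658 was above background on 1 of its 6 T-47D arrays. In T-47D ratios, 7 of the 24 genes had probes of opposite sign and 0 were called in both directions. The member probe whose vehicle level was most like that of a given member over the 30 arrays was of the same family for 68 of 83 members but of the same gene for 10 of 83. HIST1H2AG (A_24_P303354) was most like H2AFJ (A_23_P204277), with r = 0.993, and HIST2H2AA3 (A_23_P103981) was most like HIST1H2AD, with r = 0.988. These correlations run over lines and time points that share arrays, and are given as descriptions.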

How the data were processed

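The 30 arrays were Agilent 44K 2-colour arrays, scanned and read by the authors with Feature Extraction (9.5.1.1 per the file headers, another release per the methods). The deposited scanner files give processed intensity per channel and a log10 ratio of Cy5 over Cy3, dye-normalized by the authors, and the deposited value table gives log2 ratios with a median of 0 per array. Each sample pooled 3 cultures. Control spots and outlier spots were left out and spots of 1 probe averaged with Python 3.11.15, pandas 2.3.3 and numpy 2.4.6. The vehicle level was log2 of the Cy3 intensity minus the array's 75th percentile, and the ratio was converted to log2. Tests used limma 3.58.1 (R 4.3.3) over all 41000 probes with Benjamini-Hochberg adjustment at 0.05, and were tested on simulated data. Time points of a line stood in for replicates: time point was a term for lines, and 15 groups of 2 arrays served within lines. The mean ratio alone was tested over 5 lines, with 1 mean per line. Members were named if called (up to 5 per direction by size), brightest in their family (2 probes), or most often changed 2-fold, and up to 3 genes per list were named, of which 1 is not reported here. The members and lists were chosen with earlier results of these data known. Alternatives were no scaling, normexp (offset 50) with loess, median scaling or quantile normalization, the value table, a filter of 24 arrays above background, scan batch as a term, slide as a random block, and leaving out lines or arrays. Of 77 gene names 72 matched 1 current symbol.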

Additional observations from a re-analysis of the deposited data

Results flagged for a closer look

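In each line the 6 time points were searched for a value far from the rest (a gap to its neighbour of over 0.625 of the range, Dixon's limit for 6 values), in 240 groups. Chance gives such a gap in about 1 of 20 groups, and 17 were found. The MDA-MB-231 array of 6 h, the one with 2741 outlier spots, held 5 of them: the variant median level (5.86), H2AFZ (A_24_P354468, 7.54), H2AFX (6.84) and H3F3B (A_23_P152516, 7.71) in vehicle, and the HIST1H4L ratio (-0.32). The 12 h array of that line had the variant median ratio at -0.34 and the H2AFZ ratio (A_24_P354468) at -0.42, and its 30 min array had HIST1H2BK at 2.87 and HIST2H2AA3 (A_23_P309381) at -3.05 in vehicle.

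In ZR-75-30 the 6 h array stood apart in the replication-dependent median ratio (0.37) and in the HIST3H2BB ratio (A_24_P524452, 0.99), the 12 h array in H3F3B (A_23_P152516, 7.27) and the 24 h array in HIST3H3 (5.94), both in vehicle. In T-47D the 3 h array stood apart in the replication-dependent vehicle median (1.4) and in the HIST1H2BD ratio (A_32_P152348, 0.06), and the 1 h array in the HIST1H1C ratio (0.33). In MDA-MB-361 the 12 h array stood apart in HIST1H2BL in vehicle (3.12). The T-47D 3 h, ZR-75-30 6 h, MDA-MB-231 30 min and MDA-MB-231 6 h arrays belong to the second scan batch, and the part of the batch in these values was not tested.

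The BMP7 ratio differed between the 5 lines for 22 of 109 members (20.2%) by limma's F-test, beside 15.2% of all probes. Among the members named for single lines, the adjusted p of that test was 0.00193 for HIST2H2AA3 (A_23_P309381), 0.00314 for HIST3H2BB (A_24_P524452), 0.00342 for HIST1H2BD (A_32_P152348), 0.0192 for HIST1H1B and 0.032 for H1FX.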

How the results depend on the processing

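No paired analysis was possible because no array was repeated and the replicate numbers only name time points. Without 75th percentile scaling 20 members were higher in T-47D vehicle, and with the Cy3 filter 17 were lower in HCC1954. Under normexp with median scaling 24 members were called for the mean ratio, 0 for the ratio by line, 0 lower in T-47D and 1 higher in MDA-MB-361. The count of 24 and the other member counts of this section stand without the share of all probes in the same fit. Median scaling shifted the class medians, as given below. With normexp and loess 17 were lower in T-47D. The count for MDA-MB-361 was 13 with the value table, 1 with scan batch as a term and 1 with the first scan batch alone, where the ratio by line had 11. With both channels above background on at least 24 arrays, 3 members were called over time in the ratio. The 2-fold changes were 8 with loess, 167 with median scaling, 18 above background and 0 at 3-fold.

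The median ratios under median scaling were 0.17 (HCC1954), 0.25 (MDA-MB-231) and 0.27 (MDA-MB-361, 0.07 with the value table) for replication-dependent probes, and 0.5, 0.65, 0.4, 0.07 and 0.34 for variant probes in HCC1954, MDA-MB-231, MDA-MB-361, T-47D and ZR-75-30. The HIST4H4 difference in HCC1954 turned to -0.0 with loess and -0.06 with median scaling, and with the latter HIST1H2BJ in MDA-MB-361 turned to -0.08 and HIST2H2AB in T-47D to 0.03. The cause was not tested.

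Leaving out each line or array in turn, the counts of members ran from 95 to 105 for vehicle by line, 70 to 84 lower in MDA-MB-231, 46 to 74 higher in ZR-75-30, 35 to 61 higher in T-47D, 35 to 56 higher in MDA-MB-361, 21 to 65 lower in HCC1954, 6 to 33 for the ratio by line, 9 to 34 lower in T-47D, 1 to 11 higher in MDA-MB-361 and 0 to 3 for the ratio over time. They stayed at 0 for the mean ratio and for vehicle over time, within lines too, as did the test between lines of the ratio over time. Of the values of single members, 517 of the vehicle kept direction and call and 19 lost the call, and of the ratio 93 kept both, 39 lost the call and 4 turned. The first scan batch alone and single arrays were chosen after seeing the data. Histone spots near background limit what the ratios can show.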
